A study of Arabidopsis thaliana with 20 samples.

Results

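The extracellular lipase genes EXL1 to EXL6 (AT1G75880, AT1G75890, AT1G75900, AT1G75910, AT1G75920 and AT1G75930) lie side by side on chromosome 1 of Arabidopsis thaliana. They were picked by their locus identifiers, and all 6 were found among the 28775 genes of the gene count tables, the 27416 genes of the GMUCT tables and the 27162 transcripts of the small RNA tables. EXL proteins belong to the GDSL family of lipases and esterases. Some of them are known as proteins of the pollen coat. This is the lipid-rich layer that the tapetum, the nurse tissue of the anther, lays onto maturing pollen grains together with oleosin-like glycine-rich proteins. The pollen coat meets the stigma first, and loss of EXL4 is known to slow the hydration of pollen there.

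The libraries were made from unopened flower buds of plants about 4 weeks old, raised with 16 hours of light and 8 hours of darkness per day. Wild-type Col-0, the laboratory reference line, was compared with dxo1, a mutant of the DXO1 enzyme that removes NAD caps from RNA 5′ ends, and with dxo1 rdr6, also mutated in RDR6, the RNA-dependent RNA polymerase that makes the double-stranded precursors of small interfering RNAs. Col-0 and dxo1 were profiled by total RNA, polyA RNA and NAD capture, dxo1 by GMUCT, a method that sequences polyadenylated RNA from its free 5′ end, where the cap is missing or the RNA was cleaved, and all 3 genotypes by small RNA. There were 10 groups of 2 libraries, 20 in all, with no treatment and no transgene named in the labels. The labels give neither the alleles nor the plants behind each library, so p-values measure only the spread between these libraries, which may be technical.

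Gene counts per library ran from 1144896 to 3178702 for NAD capture, 2576448 to 8309456 for total RNA, 10100250 to 16833010 for polyA RNA, and 19769742 to 30883266 for GMUCT. Small RNA libraries held 137603 to 4087476 counts. The mutated gene was high in replicate 1 of dxo1 outside capture. DXO1 stood there at 19.8 times the Col-0 mean in total RNA, 10.2 times in polyA RNA and 132 times in small RNA. In replicate 2 it stood at 0.355, 0.396 and 0.45 times that mean, and in NAD capture at 0.912 times in replicate 1 and 0.899 times in replicate 2. In GMUCT, where Col-0 was not analysed here, DXO1 stood at 1688 CPM (counts in 1e+06 gene counts, scaled by TMM factors) in replicate 1 and 20.4 in replicate 2. The labels do not say where in the gene the mutation lies, and counts outside the changed stretch could not check the genotype. Wherever it lies, the 2 dxo1 libraries were unlike each other in DXO1, at 612 and 11.0 CPM in total RNA and 501 and 19.4 in polyA RNA. In capture they were alike, at 17.8 and 17.6. Whether the 2 came from like plants was not tested. "dxo1" therefore means the libraries labelled dxo1, and the results without replicate 1 are given where they differ.

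PolyA RNA, the deepest assay run in both genotypes, showed the clearest difference within the cluster. EXL1, EXL4, EXL5 and EXL6 fell in dxo1, from 1.65-fold for EXL1 to 5.12-fold for EXL6, whereas EXL2 and EXL3 did not pass the test. These 4 of 6 genes passed at an adjusted p under 0.05 in edgeR's quasi-likelihood test, against a background of 14.5% of all 19730 genes tested called lower (30.1% in either direction). The median log2 fold change of the 6 genes was -0.97, and that of all genes 0.01.

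EXL6, one of the major pollen coat lipases, stood at 509 and 518 CPM in the Col-0 libraries and at 132 and 68.6 in dxo1. Both mutant libraries lay far below both wild-type ones, and replicate 2 was the lower of the pair. The log2 fold change was -2.36 ± 0.271 (SE, n = 2 libraries per group; edgeR adjusted p = 0.00211).

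EXL5, its neighbour in the cluster, stood at 87.7 and 103 CPM in Col-0 and at 34.9 and 20.7 in dxo1. The groups did not overlap, and the second mutant library was again the lower. Its log2 fold change was -1.77 ± 0.217 (edgeR adjusted p = 0.00247).

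EXL4, the gene named above for pollen hydration, stood at 881 and 944 CPM in Col-0 and at 515 and 307 in dxo1. The mutant libraries differed from each other by 1.68-fold, but both were below both Col-0 libraries. Its log2 fold change was -1.15 ± 0.219 (edgeR adjusted p = 0.00998).

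EXL1, at the other end of the cluster, stood at 132 and 124 CPM in Col-0 and at 69.1 and 86.2 in dxo1. Here the second mutant library was the higher one, and the groups again did not overlap. The log2 fold change was -0.72 ± 0.119 (edgeR adjusted p = 0.00612).

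EXL2, with the lowest counts of the cluster, stood at 10.4 and 8.98 CPM in Col-0 and at 7.29 and 3.80 in dxo1. Its groups did not overlap, but the log2 fold change of -0.78 ± 0.285 did not pass (edgeR adjusted p = 0.0798). EXL3 stood at 42.6 and 38.7 CPM in Col-0 and at 42.0 and 33.4 in dxo1. The EXL3 groups overlapped, and its log2 fold change was -0.10 ± 0.129 (edgeR adjusted p = 0.572).

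Without dxo1 replicate 1, the library with high DXO1, all 6 log2 fold changes stayed negative, with EXL2 at -1.34 and EXL3 at -0.28. The EXL1 and EXL4 calls depended on having both Col-0 libraries, at little changed fold changes. Calls over all genes also varied widely with the library left out. In whole buds, fewer tapetum cells and less RNA per tapetum cell cannot be told apart.

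**Figure D1:**
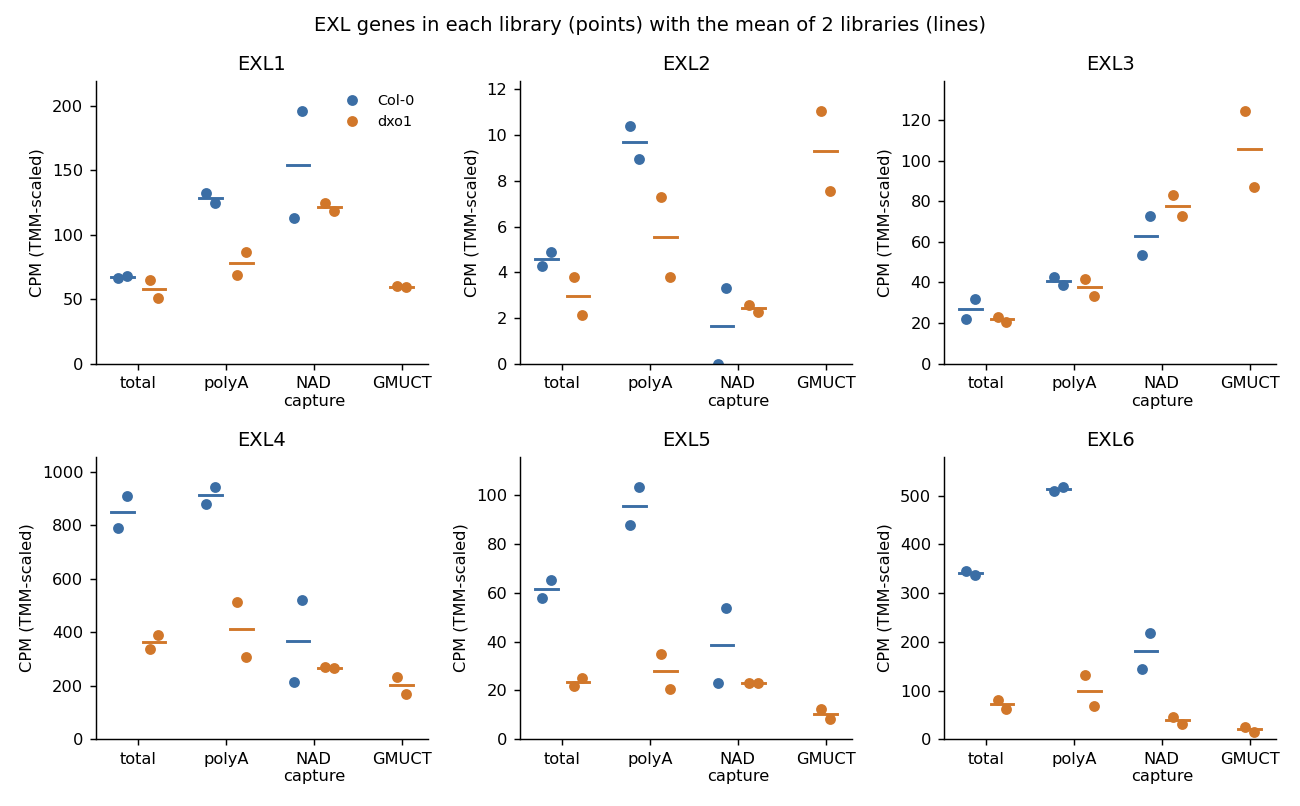
TMM-scaled CPM of each EXL gene in every library, by assay on the horizontal axis, with Col-0 in blue and dxo1 in orange; points are libraries and lines the means of 2 (polyA RNA, GMUCT and the other assays were scaled in separate fits). In polyA and total RNA the dxo1 points of EXL4, EXL5 and EXL6 lie below all Col-0 points, and EXL3 is at 124 and 86.9 in GMUCT.

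Total RNA was scaled and tested apart from polyA RNA, in a fit with the NAD capture libraries. All 6 EXL genes had negative log2 fold changes there, and 1 of 6 was called lower, against a background of 0.581% of 17718 genes (0.406% higher, 0.988% in either direction). EXL6 stood at 345 and 337 CPM in Col-0 and at 81.2 and 62.7 in dxo1. Those mutant values lay close together and well below the wild-type pair, giving a log2 fold change of -2.25 ± 0.293 (edgeR adjusted p = 0.0317).

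For EXL5 the total RNA values were 57.7 and 65.1 CPM in Col-0 and 21.9 and 24.98 in dxo1, and for EXL4 790 and 910 against 337 and 389. Neither pair of groups overlapped, and the log2 fold changes were -1.38 ± 0.300 for EXL5 (edgeR adjusted p = 0.0637) and -1.23 ± 0.365 for EXL4 (edgeR adjusted p = 0.133). EXL1 (-0.22 ± 0.280), EXL2 (-0.68 ± 0.585) and EXL3 (-0.28 ± 0.260) did not pass.

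The number of calls in total RNA depended on which libraries shared the estimate of the spread. With the 4 total RNA libraries alone, 3 EXL genes were lower, EXL4 and EXL5 with edgeR adjusted p-values of 7.53e-05 and 1.06e-04. Without dxo1 total RNA replicate 1, EXL6 was at -2.44 with an edgeR adjusted p of 0.113. Leaving out any other of the total RNA libraries, or either dxo1 capture library, likewise ended its call, with adjusted p-values from 0.107 to 0.49 at log2 fold changes from -2.07 to -2.26.

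**Figure D2:**
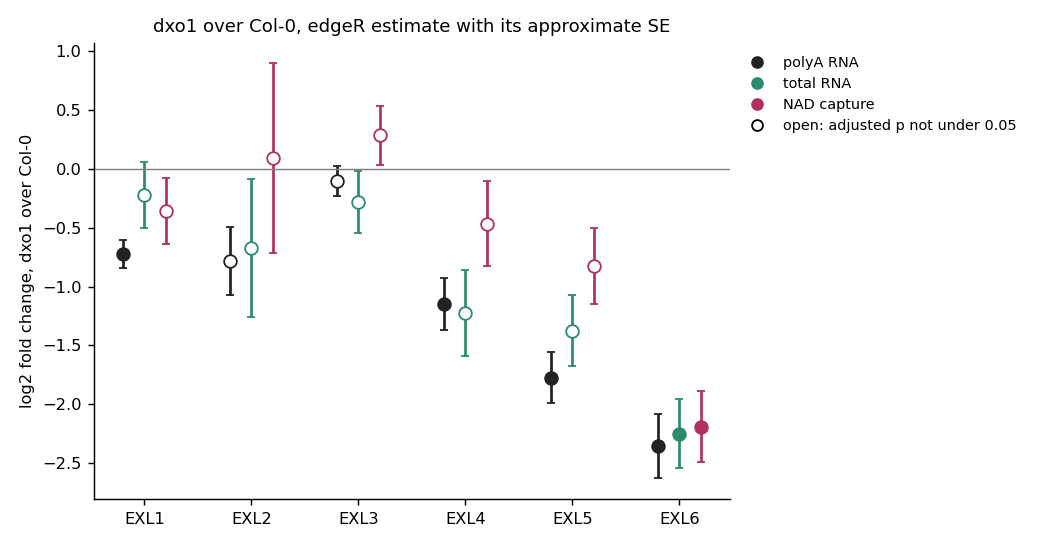
Log2 fold change of dxo1 over Col-0 for each EXL gene in polyA RNA, total RNA and NAD capture, with the approximate SE as bars and filled points for edgeR adjusted p under 0.05. EXL6 lies between -2.36 and -2.19 in all 3 assays, and EXL3 between -0.28 and 0.28.

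NAD capture is meant to recover RNA that carries an NAD cap, by an enzymatic tag on that cap. No mock capture without the enzyme is among the libraries, so tagged RNA and background carry-over cannot be told apart. Among the captured RNA of dxo1 and Col-0, 1 of 6 EXL genes was called lower, against 0.689% of 17718 genes (0.0677% higher, 0.756% in either direction). Captured EXL6 stood at 144 and 219 CPM in Col-0 and at 46.9 and 32.5 in dxo1. Both mutant libraries were lower than both wild-type ones, and the log2 fold change was -2.19 ± 0.300 (edgeR adjusted p = 0.0201). For captured EXL5 the values were 23.3 and 53.6 CPM in Col-0 and 23.2 and 23.01 in dxo1, with a log2 fold change of -0.82 ± 0.324 (edgeR adjusted p = 0.221).

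The Col-0 capture libraries were unlike each other: replicate 1 held 472 counts over the 6 genes and replicate 2 held 2586. Their gene counts were 1144896 and 1807082. The TMM factor of replicate 1 was 0.7547 in this fit, where replicate 2 had 1.35 and the dxo1 capture libraries 1.349 and 1.355. EXL4 was captured at 215 CPM in Col-0 replicate 1 and 523 in replicate 2, on either side of the 271 and 267 in dxo1. Without Col-0 capture replicate 1, 4 EXL genes were called lower, with EXL4 at -0.95, EXL5 at -1.20 and EXL1 at -0.67. Without either dxo1 capture library, without either Col-0 total RNA library, or with the 4 capture libraries alone, 0 of 6 were called and EXL6 was at -1.95 to -2.48.

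The question of capture itself is how much of each RNA was recovered relative to its level in total RNA. In Col-0, EXL1 and EXL3 were higher in capture and EXL4 and EXL6 lower, 2 of 6 each way, against backgrounds of 13.5% called higher and 10.7% called lower (24.2% in either direction). In dxo1, EXL1 and EXL3 were again higher and EXL6 lower, against 18.4% and 18.1% (36.5% in either direction). Without both dxo1 replicate 1 libraries, edgeR called 0 of the 5 EXL genes that passed the count filter in either genotype, although 4 in Col-0 and 2 in dxo1 had an unadjusted p under 0.05; DESeq2 was not run on that subset. EXL1, EXL3, EXL4 and EXL6 were then at 1.20, 1.25, -1.21 and -0.91 in Col-0 (edgeR adjusted p from 0.0662 to 0.151), and EXL1, EXL3 and EXL6 at 1.21, 1.80 and -0.95 in dxo1 (edgeR adjusted p from 0.107 to 0.281). Members of 1 cluster thus lay on both sides of the median gene, which was at 0.06 in Col-0 and 0.04 in dxo1.

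EXL3 was captured at 53.5 and 72.6 CPM in Col-0 and at 83.1 and 72.6 in dxo1, and its total RNA values were 22.2 and 31.6, and 23.1 and 20.7. Every capture library lay above every total RNA library. On the log2 scale capture over total RNA was 1.27 ± 0.263 in Col-0 (edgeR adjusted p = 0.00796) and 1.84 ± 0.254 in dxo1 (edgeR adjusted p = 7.43e-04).

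EXL1 was captured at 113 and 196 CPM in Col-0 and at 125 and 118 in dxo1, beside total RNA values of 66.6 and 68.2, and 65.2 and 50.8. Again no capture library lay as low as a total RNA library. The log2 ratios were 1.21 ± 0.284 in Col-0 (edgeR adjusted p = 0.0133) and 1.07 ± 0.280 in dxo1 (edgeR adjusted p = 0.0139).

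For EXL6 capture over total RNA was at a log2 value of -0.90 ± 0.284 in Col-0 (edgeR adjusted p = 0.0421) and -0.84 ± 0.291 in dxo1 (edgeR adjusted p = 0.0437). EXL4 was at -1.19 ± 0.366 in Col-0 (edgeR adjusted p = 0.0381) and at -0.43 ± 0.361 in dxo1 (edgeR adjusted p = 0.369). The lower calls were the less stable ones. With library totals in place of TMM factors EXL4 moved to -0.77 and EXL6 to -0.55 in Col-0, and EXL6 to -0.16 in dxo1, none of them passing, while EXL1 and EXL3 kept their calls. That scaling moved the median of all genes to 0.37 in Col-0 and 0.72 in dxo1, and the share of calls that were higher from 55.7% to 81.8% and from 50.3% to 88.9%.

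EXL2 was close to the limit of the capture libraries, with 0 counts in Col-0 replicate 1, where 3 counts set the floor, and 5 to 11 in the others. Its ratios of -0.97 ± 0.734 in Col-0 and -0.20 ± 0.644 in dxo1 did not pass. EXL5 was at -0.58 ± 0.309 in Col-0 and -0.03 ± 0.312 in dxo1, and did not pass either.

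With polyA RNA as the reference, EXL1 and EXL3 were again called higher in both genotypes, the EXL1 call in Col-0 being the least stable. EXL3 was at a log2 ratio of capture to polyA RNA of 1.30 ± 0.222 in Col-0 (edgeR adjusted p = 0.00647) and 1.71 ± 0.216 in dxo1 (edgeR adjusted p = 0.00139). EXL1 was at 0.92 ± 0.264 (edgeR adjusted p = 0.0414) and 1.31 ± 0.265 (edgeR adjusted p = 0.00793). These 2 of 6 higher calls stand against 9.96% of 19821 genes in Col-0 and 15.4% in dxo1 (18.7% and 30.5% in either direction). Against polyA RNA edgeR called 0 EXL genes lower, as did DESeq2, where 8.69% and 15.1% of genes were. Only EXL6 in Col-0 had an unadjusted edgeR p under 0.05 in that direction. In Col-0 EXL1 passed under 4 of 14 alternatives, with edgeR or DESeq2 adjusted p-values up to 0.477, and lost its call without either dxo1 capture library, without any 1 of the polyA libraries and without Col-0 capture replicate 2. EXL3 passed under 10 of 14 in Col-0 and 13 of 14 in dxo1, and EXL1 in dxo1 under 10 of 14. Without both dxo1 replicate 1 libraries none of these calls passed, at log2 ratios of 0.91 and 1.28 in Col-0 and 1.11 and 1.78 in dxo1 for EXL1 and EXL3. Under library totals EXL3 in Col-0 (0.79, edgeR adjusted p = 0.157) and EXL1 in both genotypes lost their calls, and the median gene moved to -0.52 in Col-0 and -0.23 in dxo1. That scaling moved the share of calls that were higher from 53.4% to 15.1% in Col-0 and from 50.6% to 26.9% in dxo1.

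The difference between the genotypes in the capture to total RNA ratio, tested as an interaction, passed for 0 of 6 EXL genes (edgeR adjusted p from 0.741 to 0.992; 0 at an unadjusted p under 0.05 and 0 by DESeq2). It passed for 0% of the 17718 genes, while 1332 had an unadjusted p under 0.05 and DESeq2 called 16. The differences for the members ran from -0.14 ± 0.395 for EXL1 to 0.77 ± 0.987 for EXL2, with EXL3 at 0.56 ± 0.361, EXL4 at 0.76 ± 0.511 and EXL6 at 0.06 ± 0.407. At these errors a difference of 1.48-fold for EXL3 was not detectable.

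GMUCT was available here from dxo1 and was set against polyA RNA of the same genotype. It split the cluster by member: 1 of 6 was higher and 4 of 6 lower, against backgrounds of 32.7% called higher and 32% called lower (64.8% of 20117 genes in either direction). Most genes were called in this comparison, so the number of members called says little, and their sizes are given instead.

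EXL3 stood at 124 and 86.9 CPM in GMUCT and at 40.8 and 32.6 in dxo1 polyA RNA of the same fit. Both GMUCT libraries lay above both polyA libraries, and the log2 ratio was 1.52 ± 0.187 (edgeR adjusted p = 1.99e-04). EXL6 went the other way, with 25.6 and 15.3 CPM in GMUCT and 128 and 67.0 in polyA RNA. Its groups did not overlap, and the log2 ratio was -2.24 ± 0.326 (edgeR adjusted p = 4.91e-04).

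EXL4 was at -0.98 ± 0.245 (edgeR adjusted p = 0.00831) and EXL5 at -1.37 ± 0.264 (edgeR adjusted p = 0.00223). EXL1 was at -0.34 ± 0.125 (edgeR adjusted p = 0.0401) and lost its call in 5 of the 6 fits that left out 1 library. EXL2, at 11.0 and 7.57 CPM in GMUCT and 7.09 and 3.71 in polyA RNA, was at 0.78 ± 0.311 (edgeR adjusted p = 0.0565). Without dxo1 polyA RNA replicate 1 it passed at 1.32 (edgeR adjusted p = 0.0111).

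**Figure D3:**
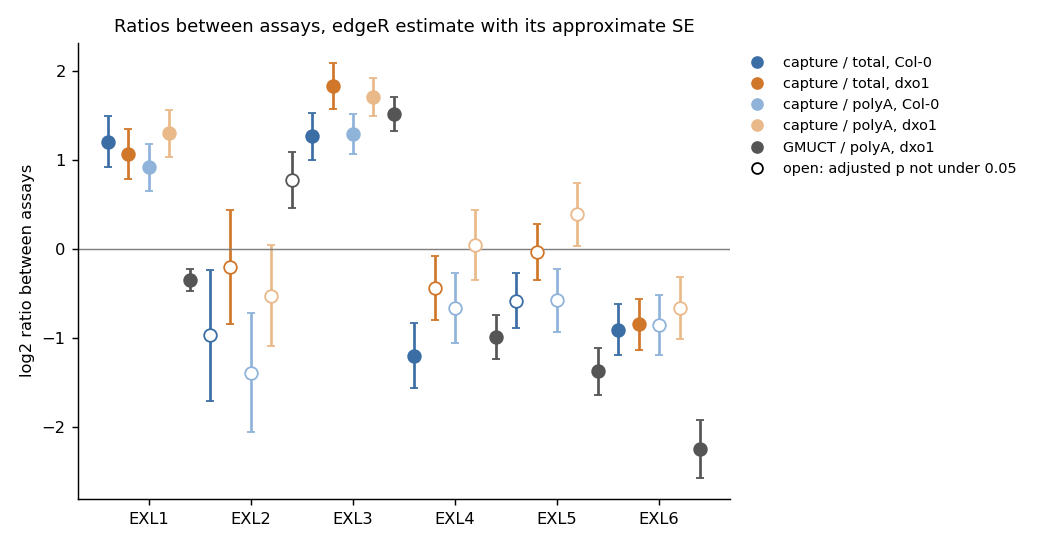
Log2 ratios between assays for each EXL gene, capture over total RNA and over polyA RNA in each genotype and GMUCT over polyA RNA in dxo1, with the approximate SE as bars and filled points for edgeR adjusted p under 0.05. EXL3 is between 1.27 and 1.84 in all 5 ratios, and EXL6 is below 0 in all 5, down to -2.24 in GMUCT.

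How the counts of the cluster divide among its 6 genes needs no scaling between libraries, so these shares were taken from raw counts. EXL6 held 30.6% and 29.8% of the cluster's counts in Col-0 polyA RNA and 16.4% and 13.2% in dxo1. In total RNA it held 26.8% and 23.8% in Col-0 against 15.3% and 11.4% in dxo1, and in capture 26.3% and 20.5% against 8.51% and 6.31%. In GMUCT it held 5.47% and 4.40%. The Col-0 libraries were above the dxo1 libraries in each assay, and the widest 95% Wilson interval of any share spanned 8.78 percentage points, covering counting error only.

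In polyA RNA, total RNA and capture alike, EXL3 shares were higher in dxo1 than in Col-0, where EXL6 shares were lower in dxo1. Shares have a fixed sum, so a gene that does not change gains share when others fall. The EXL3 level itself was not called between genotypes in polyA RNA (log2 fold change -0.10), total RNA (-0.28) or capture (0.28). EXL3 held 2.56% and 2.23% in Col-0 polyA RNA and 5.24% and 6.42% in dxo1, and 1.73% and 2.23% against 4.34% and 3.76% in total RNA. It held 9.75% and 6.81% against 15.1% and 14.1% in capture, and 26.5% and 24.9% in GMUCT. The ratio of EXL6 to EXL3 counts therefore ran from 15.5 and 10.7 in Col-0 total RNA, and 11.95 and 13.4 in Col-0 polyA RNA, down to 0.206 and 0.177 in GMUCT. Within dxo1 it was 3.52 and 3.03 in total RNA, 3.14 and 2.05 in polyA RNA, and 0.565 and 0.447 in capture. No test was made of these shares, since 2 libraries against 2 cannot reach 0.05 by permutation.

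EXL4 held the largest share in every library, from 39.2% in Col-0 capture replicate 1 to 70.7% in dxo1 total RNA replicate 2, and EXL2 the smallest, from 0% to 2.36%. Shares of different genes also follow transcript length, for which no table was used here, so they do not rank the genes by level. The ratio of EXL5 to EXL4 counts moved least, between 0.0643 and 0.109 outside GMUCT, where it was 0.0527 and 0.0494.

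**Figure D4:**
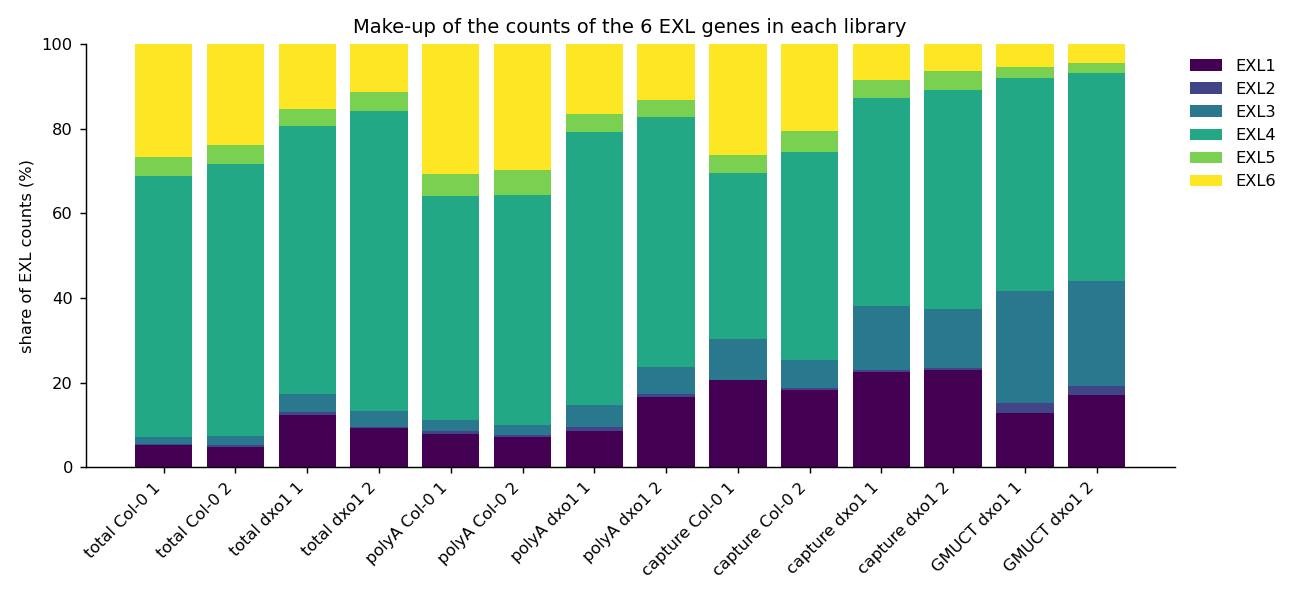
Percent of the raw counts on the 6 EXL genes that each gene took, 1 bar per library, grouped by assay and genotype. The EXL6 share is 23.8% to 30.6% in Col-0 total and polyA RNA and 4.40% to 5.47% in GMUCT, while the EXL3 share rises from 1.73% at its lowest to 26.5%.

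Across the 12 libraries of total RNA, polyA RNA and capture, with log2 CPM centred within each assay, EXL4 and EXL5 were most alike of all pairs, with a Pearson correlation of 0.979. EXL5 and EXL6 were at 0.91 and EXL4 and EXL6 at 0.852, whereas EXL3 and EXL6 were at 0.209 and EXL2 and EXL6 at 0.122. The libraries share genotype, so a gene with any genotype difference scores high with another such gene. Outside the cluster, the genes most like EXL4 among 17530 were the borate exporter gene BOR4 (0.990), AT5G44400, AT1G20120, the glutamate dehydrogenase gene GDH3 and AT3G24460. Those most like EXL6 were AT1G25230 (0.994), AT5G54870, AT1G78460, AT5G54780 and the Rab GTPase gene RABA1i.

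Other anther genes were read for comparison from lists of tapetum, pollen and neighbouring tissue markers. In polyA RNA, 4 of 6 pollen coat oleosin genes fell in dxo1, with a median log2 fold change of -1.54. Of all genes tested there, 14.5% were called lower, the background for each polyA RNA list below. GRP17, a major oleosin-like protein of the pollen coat, was at 1867 and 2055 CPM in Col-0 and at 964 and 377 in dxo1, a log2 fold change of -1.55 ± 0.376 (edgeR adjusted p = 0.0226). As in EXL4, EXL5 and EXL6, the second mutant library was the lower. GRP16 (-2.23) and GRP18 (-1.86) fell as well. The summed oleosin level was 4296 to 4390 CPM in the Col-0 libraries and 918 to 2520 in dxo1.

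All 4 tapetum-expressed genes also fell in polyA RNA, including ATA20 (-1.50), ATA7 (-0.69) and ATA27 (-1.01), the myrosinase-like gene next to EXL6. Genes of sporopollenin synthesis build the outer pollen wall in the tapetum before the coat is laid. They were called lower in 1 of 8 cases, against 14.5% of all genes, with CYP703A2 at -0.55 and a list median of 0.05. Of the tapetum regulators 0 of 4 tested passed in edgeR, 0 at an unadjusted p under 0.05 and 0 in DESeq2. AMS, a master regulator of late tapetum genes, was at -0.01 ± 0.170, with a sign that changed when dxo1 replicate 2 was left out, and MS1 was at 0.31 ± 0.205.

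Late pollen genes, which are active inside the grain, fell in all 7 of the 7 tested (9 listed), against 14.5% of all genes. ANX2 was at -2.16, VGD1 at -1.89 and ANX1 at -1.58. Their summed level was 843 to 856 CPM in Col-0 and 148 to 319 in dxo1 polyA RNA. Meiosis genes were higher in 2 of 5 cases in edgeR, ASY1 at 1.48 and SDS at 0.76, against 15.6% of all genes, and in 0 of 5 in DESeq2. Carpel and ovule genes passed in 0 of 6 cases in edgeR (0 at an unadjusted p under 0.05 and 0 in DESeq2), with STK at 0.04 and SPT at 0.11, and of 3 genes of sepal, petal and stamen identity PI was lower at -0.38. Lower EXL4, EXL5 and EXL6 thus came beside 7 of 7 late pollen genes called lower in edgeR (5 in DESeq2) and 4 of 6 oleosin genes (2 in DESeq2). The part of bud stage or tissue makeup in the EXL values was not tested.

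In total RNA the same lists gave 4 of 6 oleosin genes lower (median -1.74), among them GRP14 (-2.19), GRP18 (-2.13) and GRP20 (-1.63). Of all genes tested there, edgeR called 0.581% lower. Of the tapetum-expressed genes 0 of 4 passed there in edgeR (median -1.43), although 4 had an unadjusted p under 0.05 and 3 passed in DESeq2. Of the sporopollenin genes 1 of 8 passed in edgeR (CYP703A2, -1.43) and 2 in DESeq2, with 5 at an unadjusted edgeR p under 0.05. Their log2 fold changes ran from -1.43 to -0.59, with a median of -0.82 where polyA RNA had 0.05. Tapetum regulators passed in 0 of 3 cases in edgeR, with a median of -0.64. AGP6, a pollen arabinogalactan gene, was lower at -3.09. In capture, GRP17 (-1.67) was the single oleosin gene of 6 called lower in dxo1, beside 3 of 6 tested late pollen genes. These were AGP6 (-2.17), AGP11 (-3.01) and ANX2 (-2.25). The share of all genes called lower in dxo1 capture was 0.689%.

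Capture over total RNA was also read for these lists, with no test of a list against the EXL genes. In Col-0, 3 of 4 tapetum-expressed genes were lower in capture, with ATA27 at -2.96 and ATA20 at -2.05, against 10.7% of all genes. The highest ratio of that list was 1.34 and was not called. Of the sporopollenin genes 4 of 8 were lower, with LAP6 at -2.15. In dxo1, 0 of 8 sporopollenin genes were called by edgeR (median 0.07, 3 at an unadjusted p under 0.05). Of the tapetum-expressed genes ATA27 was lower there (-2.27) and A9 higher (2.33). In dxo1 18.4% of all genes were called higher and 18.1% lower. Of the oleosin genes 0 of 6 were called in Col-0 by edgeR (2 at an unadjusted p under 0.05 and 2 higher in DESeq2), and 5 of 6 were higher in dxo1, with GRP14 at 2.26. AGP6 and AGP11 were higher in capture in both genotypes, at 2.81 and 2.87 in Col-0 and 3.73 and 2.20 in dxo1.

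Genes flanking the cluster were read in the same way, and in polyA RNA 3 of 4 were lower in dxo1, against 14.5% of all genes. Of these 3, ATA27 was already counted among the tapetum-expressed genes. AT1G75870, the protein-coding gene just before EXL1, was at 8.10 and 8.56 CPM in Col-0 and at 1.49 and 0.799 in dxo1. Both mutant libraries lay far below, at a log2 fold change of -2.83 ± 0.286 (edgeR adjusted p = 0.00151). It rests on 8 to 17 counts per dxo1 library. AT1G75860 was at -0.30 (edgeR adjusted p = 0.0487), and SKP1 (AT1G75950), an ubiquitin ligase subunit gene on the far side of ATA27, was at 0.16. Of the GDSL lipase genes outside the cluster, 4 of 7 were tested. CDEF1, a cutin-degrading pollen lipase, was at 27.0 and 26.4 CPM in Col-0 and 8.87 and 4.997 in dxo1, a log2 fold change of -1.93 ± 0.224 (edgeR adjusted p = 0.00218), and ESM1, a gene of glucosinolate breakdown, rose at 1.41 ± 0.190 (edgeR adjusted p = 0.00340).

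A long noncoding RNA, AT1G75891, is listed right after EXL2 in the annotation and drew 0 to 21 counts per library in the tables that list it, where EXL2 drew 0 to 150. The strand setting of the counting is not given, so reads of EXL2 and of any overlapping transcript cannot be told apart.

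Small RNA counts on the cluster were few: 76 and 248 in Col-0, 244 and 18 in dxo1, and 234 and 202 in dxo1 rdr6. Every value in both dxo1 rdr6 tables is a multiple of 2, and 92.1% and 88.0% of their counts are 25 nt long, against 9.66% to 13.6% in the other libraries. Comparisons with dxo1 rdr6 are therefore also given without 25 nt reads.

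On the EXL transcripts most counts were sense. The sense share was 97.4% and 95.6% in Col-0, 84.4% and 83.3% in dxo1, and 99.1% and 98.0% in dxo1 rdr6, and the 25 nt share was 71.1% and 63.3%, 48.0% and 55.6%, and 97.4% and 96.0%. The 24 nt class, which made up 43.8% to 55.9% of all counts in the Col-0 and dxo1 libraries, held 5.56% to 10.7% on the cluster.

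Of the 6 EXL genes 0 passed between dxo1 and Col-0 in small RNA by edgeR, against 5.31% of 15358 transcripts (2.3% higher and 3% lower), with EXL2 and EXL4 at an unadjusted p under 0.05 (0.0383 and 0.00501) and 0 passing in DESeq2. In dxo1 rdr6 against dxo1, 2 of 6 were lower, against 23.3% called lower (12.9% higher, 36.2% in either direction). EXL2, with counts of 23 and 1 in dxo1 and 2 and 4 in dxo1 rdr6, was at -2.81 ± 0.759 (edgeR adjusted p = 0.00516). EXL6, with 50 and 5 in dxo1 and 26 and 18 in dxo1 rdr6, was at -1.30 ± 0.386 (edgeR adjusted p = 0.0104). In the shallow dxo1 replicate 2 these values rest on 1 count of EXL2 and 5 of EXL6.

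In dxo1 rdr6 against Col-0, 3 of 6 were lower, against 23.1% called lower (8.62% higher, 31.8% in either direction). EXL6, at 21.2 and 23.9 CPM in Col-0 and 7.06 and 5.34 in dxo1 rdr6, was at -1.87 ± 0.356 (edgeR adjusted p = 1.44e-04). EXL5 was at -2.72 ± 0.676 (edgeR adjusted p = 0.00245) and EXL4 at -1.24 ± 0.307 (edgeR adjusted p = 0.00245). With 19 to 24 nt reads alone 0 EXL genes were called lower in either comparison by edgeR, and DESeq2 on all lengths called 1 lower against Col-0 and 0 against dxo1. Library totals moved the median of all transcripts from 0.02 to 1.09 in dxo1 rdr6 against Col-0, left 1 EXL gene lower, and moved the share of calls that were higher from 27.1% to 71.3%. In dxo1 against Col-0 that share moved from 43.4% to 88.0%.

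Antisense reads of 21 and 22 nt, lengths typical of RDR6-dependent small interfering RNAs, were counted over the 6 genes together. There were 1 and 4 in Col-0, 28 and 2 in dxo1, and 0 and 0 in dxo1 rdr6. Relative to antisense reads of those lengths this is 7.81 RPM (the number in 1e+06 such reads; 95% exact Poisson interval 0.198 to 43.5) and 10.7 (2.92 to 27.4) in Col-0, and 69.6 (46.2 to 101) and 127 (15.4 to 458) in dxo1. The interval of dxo1 replicate 1 lies above those of Col-0, for counting error alone. That is the small RNA library where DXO1 stood at 132 times the Col-0 mean. The interval of dxo1 replicate 2, from 2 reads and under its floor of 190 RPM, overlaps those of Col-0. The replicate 2 value lay above those of Col-0, but it rests on 2 reads. Whether this library, the one with low DXO1, differed from Col-0 was not tested. Of the 28 reads in dxo1 replicate 1, EXL2 had 9 and EXL3 10. In dxo1 rdr6, after halving the counts, 0 reads allow up to 437 and 257 RPM at a floor of 3 counts, so a level like that of dxo1 was not detectable there.

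**Figure D5:**
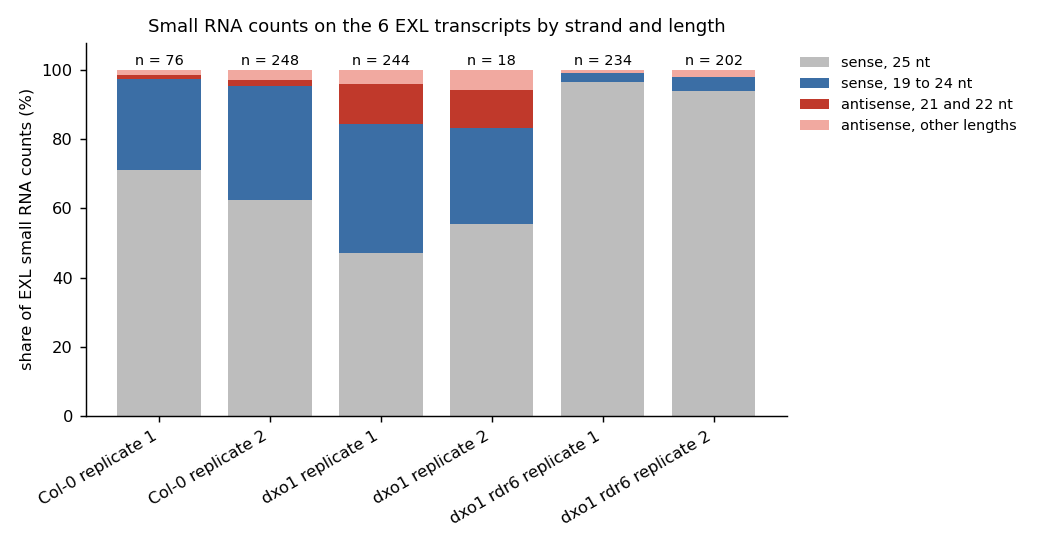
Percent of the small RNA counts on the 6 EXL transcripts by strand and length, 1 bar per library, with the number of counts above each bar. Sense 25 nt reads make up nearly all of the dxo1 rdr6 counts. Antisense 21 and 22 nt reads are 28 of 244 in dxo1 replicate 1, the library with high DXO1, against 4 of 248 in Col-0 replicate 2.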

How the data were processed

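Per the submitters' processing notes, reads were handled with cutadapt, STAR 2.4.2a and HTSeq on TAIR10; settings are not given. The deposited tables hold raw counts per gene, from 50 nt single-end strand-specific reads per the labels' protocols, with 5 entries for unassigned reads, which held 90.8% to 96.1% of counts in total RNA and capture and 18.2% to 28.3% in polyA RNA and GMUCT. They were left out. The deposited small RNA counts per transcript, strand and length (19 to 25 nt) were summed, a missing transcript being 0; the sources used here do not name the tool. Near-identical paralogs may lose reads with several matches.

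Counts were tested in R 4.3.3 with edgeR 4.0.16 (filterByExpr, minimum count 10; TMM; quasi-likelihood F test, two-sided; Benjamini-Hochberg over all genes, threshold 0.05) for 12 comparisons in 5 fits: the 8 capture and total RNA libraries, the 8 capture and polyA libraries, the 4 polyA libraries, GMUCT with polyA RNA, and small RNA. An SE was taken as the fold change's size divided by the root of its F value. Alternatives were other scalings, DESeq2 1.42.0, no filter, a replicate block, an assay's own libraries, read classes and each library left out.

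The members, lists and tests were chosen with earlier results of these data known. From each list at most 3 passing genes of lowest p, or the 2 of highest level, are named; genes most like EXL4 and EXL6 are the 5 of highest correlation each. The script was tested on simulated data. Libraries of a group were not copies: chi-square per degree of freedom was at least 2.26. It was highest in Col-0 capture, at 33.7, followed by GMUCT at 28.96. Names and gene order come from RefSeq TAIR10.1, which matched 28009 genes. Levels per coding length, planned for comparing genes, were not computed, since no lengths were used here.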

Additional observations from a re-analysis of the deposited data

Results flagged for a closer look

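For EXL4 and EXL5, both Col-0 capture libraries stood below polyA RNA and both dxo1 capture libraries above it. Relative to the mean polyA level of the genotype, EXL4 capture was at log2 values of -1.46 and -0.16 in the Col-0 libraries and 0.11 and 0.08 in dxo1, a difference of 0.905 between the genotype means. EXL5 capture was at -1.40 and -0.18 in Col-0 and 0.45 and 0.43 in dxo1, a difference of 1.23. In dxo1 the side is not established for EXL4, whose capture over polyA RNA was 0.05 ± 0.390 (SE) and changed sign under 3 of 14 alternatives (-0.27 to 0.48). The test of the difference, an interaction added after seeing the data, passed for neither. EXL4 was at 0.71 ± 0.553 (SE; edgeR adjusted p = 0.703) and EXL5 at 0.97 ± 0.503 (edgeR adjusted p = 0.583), in a fit that called 0 of 19821 genes and put 1761 at an unadjusted p under 0.05. Most of the distance lies in Col-0 capture replicate 1, whose values are the lowest for both genes. The part of that library in the difference was not tested.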

How the results depend on the processing

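Over 942 values of the EXL genes under the alternatives, 0 called log2 fold changes turned their sign, 766 kept sign and call, 90 lost the call, 45 gained it and 41 turned their sign without being called. EXL5 and EXL6 in polyA RNA passed under all 9 alternatives (-1.46 to -2.22 and -1.97 to -2.91). EXL3, EXL4, EXL5 and EXL6 in GMUCT passed under all 12. With 2 libraries a group, depth of capture and small RNA limits EXL2 most. The cause of the changes below was not tested, and the lone library of a group left by an omission is assumed to vary like the others.

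In the ranges that follow, 1 library was left out at a time. Capture over total RNA in Col-0 called 4287 genes (721 to 7278), with 2 EXL genes higher (0 to 2) and 2 lower (0 to 3). In dxo1 it called 6471 (2229 to 9622), with 2 higher (1 to 2) and 1 lower (0 to 2), and their difference 0 (0 to 1706), with 0 EXL genes higher (0 to 2). Total RNA gave 175 genes (0 to 2220) with 1 EXL lower (0 to 3), and capture of dxo1 over Col-0 134 (0 to 2621) with 1 lower (0 to 4). Capture over polyA RNA in Col-0 gave 3697 (383 to 6842) with 2 higher (0 to 2) and 0 lower (0 to 2), and in dxo1 6046 (1383 to 9471) with 2 higher (1 to 2). PolyA RNA gave 5932 (670 to 8890) with 4 lower (2 to 6), and GMUCT 1 EXL higher (1 to 2). Small RNA of dxo1 over Col-0 gave 815 (20 to 1972) with 0 EXL higher (0 to 1). Dxo1 rdr6 over dxo1 gave 5560 (1814 to 7293), with 0 higher (0 to 1) and 2 lower (0 to 3). Dxo1 rdr6 over Col-0 gave 4877 (2810 to 7189), with 0 higher (0 to 1) and 3 lower (1 to 3).

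With library totals, capture over total RNA in Col-0 called 2574 genes and 0 EXL lower, in dxo1 0 EXL lower, and total RNA and capture of dxo1 over Col-0 called 0 genes and 0 EXL each. Capture over polyA RNA then had 0 EXL higher in Col-0 and 1 in dxo1. Small RNA called 1499 for dxo1 over Col-0. It gave 1 EXL higher and 1 lower for dxo1 rdr6 over dxo1, and 9704 genes, 1 higher and 1 lower over Col-0. RLE factors gave 1 EXL higher in each dxo1 rdr6 comparison.

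DESeq2 called 16 genes for the difference of the ratios, 289 in total RNA with 3 EXL lower, and 449 in capture of dxo1 over Col-0. In small RNA it called 312 for dxo1 over Col-0, 2723 over dxo1 with 0 EXL lower, and 3010 over Col-0 with 1 lower. No filter gave 287 for the difference, 1081 and 3 EXL lower in total RNA, 1524 in capture, 1 EXL lower in capture over polyA RNA in Col-0, 2 higher in GMUCT and 1 higher in dxo1 rdr6 over Col-0.

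Correlations of same-numbered deviations lay between -0.058 and 0.093 but for GMUCT and polyA RNA of dxo1 at 0.538, from 2 numbers. The main fit of those libraries had no replicate block. DXO1 alone was far higher in dxo1 replicate 1 than in replicate 2 of every assay except capture. Whether the dxo1 numbers mark a shared source was not tested. With the replicate block, capture over total RNA had 1 EXL lower in Col-0 and 0 in dxo1. Total RNA called 19 genes, capture of dxo1 over Col-0 79 and small RNA of dxo1 over Col-0 382. Capture over polyA RNA in Col-0 then had 1 EXL higher and GMUCT 2.

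Without both dxo1 replicate 1 libraries of a fit, capture over total RNA called 1024 genes in Col-0, with 0 EXL higher and 0 lower, and 0 in dxo1 (3856 at an unadjusted p under 0.05), again with 0 and 0. Total RNA and capture of dxo1 over Col-0 called 0 genes and 0 EXL. Capture over polyA RNA called 599 in Col-0 and 21 in dxo1, with 0 EXL higher in each, and GMUCT 2 EXL higher. The assay's own 4 libraries gave 2357 genes and 3 EXL lower in total RNA, and 0 and 0 in capture.

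In small RNA, 21 and 22 nt reads gave 534 genes and 0 EXL lower for dxo1 rdr6 over dxo1 and 1190 and 0 over Col-0, and 19 to 24 nt reads, added after seeing the data, 1739 and 0, and 2462 and 0. Halving the dxo1 rdr6 counts, also added then, gave 1822 genes and 1 EXL lower for dxo1 over Col-0, 1 lower over dxo1 and 1 higher over Col-0. The EXL genes have 1 transcript model each in the small RNA tables, so summing models could not be tried.

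DXO1 turned sign by library: capture over total RNA in dxo1 ran from -5.11 to 0.68 and was 0.67 without both replicate 1 libraries, polyA RNA from -1.34 to 3.35, and small RNA of dxo1 over Col-0 from -1.18 to 7.29. AMS in polyA RNA ran from -0.30 to 0.21.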
